A study of Rattus norvegicus with 12 samples.

Results

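The genes that load peptides onto major histocompatibility complex (MHC) molecules were described in rat left ventricle after treadmill training. The 10 genes comprised 5 of the class I path (B2m, Tap1, Tap2, Psmb8 and Psmb9) and 5 of the class II path (Cd74, RT1-Da, RT1-Db1, RT1-Ba and RT1-Bb). Their members were all probe sets to which the platform annotation gives 1 gene symbol equal to one of these names. This took 23 of the 8740 probe sets on the array, 7 of the class I path and 16 of the class II path. The exercised group held 6 samples of left ventricle from rats that had run on a treadmill for 7 weeks, and the sedentary group held 6 samples of left ventricle from sedentary rats. Samples are named by group and label number, as exercised 1, 4, 5, 7, 8 and 9 and sedentary 13, 16, 17, 21, 23 and 24. Strain, age, sex, the running schedule and the time between the last run and sampling are not given in the labels. Nothing in the labels says that the numbers are separate animals, and the p-values therefore rest on the spread between samples, part of which may be technical.

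Class I molecules show peptides from proteins made inside the cell to cytotoxic T cells, and most nucleated cells carry them. The proteasome cuts the peptides, the immunoproteasome subunits replace the standard catalytic ones under interferon, the TAP transporter carries the peptides into the endoplasmic reticulum, and β2-microglobulin completes the class I molecule there. Class II molecules show peptides from engulfed material to helper T cells and are carried mainly by macrophages, dendritic cells and B cells, which in the heart lie between the muscle cells. In the rat the MHC is called RT1, with RT1-D and RT1-B as the counterparts of human HLA-DR and HLA-DQ.

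The classical control sequences of the 2 paths can be read in the promoters of most of these genes and are shown because they group most members apart from any measured value. RefSeq (GRCr8) gave a promoter of 250 bases before to 50 after the start for each of the 10 genes. Class II promoters are known for an X box bound by the RFX complex and a Y box bound by NF-Y, which together recruit the coactivator CIITA. In the 4 RT1 class II promoters, 80 bases each from upstream to downstream, capitals mark ACNGATG, the end of the X box, and CTGATTGG, which holds the Y box core ATTGG.
RT1-Da (chr20:4515308-4515387, plus strand): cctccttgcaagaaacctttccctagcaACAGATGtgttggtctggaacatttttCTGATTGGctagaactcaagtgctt
RT1-Db1 (chr20:4560221-4560300, minus strand): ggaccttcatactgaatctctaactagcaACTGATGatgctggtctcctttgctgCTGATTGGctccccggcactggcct
RT1-Ba (chr20:4576956-4577035, plus strand): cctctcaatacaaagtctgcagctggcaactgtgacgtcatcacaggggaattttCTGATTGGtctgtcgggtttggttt
RT1-Bb (chr20:4604158-4604237, minus strand): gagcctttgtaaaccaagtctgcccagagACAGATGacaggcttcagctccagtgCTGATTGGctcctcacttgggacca
The distance between the 2 marked motifs was 20 bases in RT1-Da and 19 bases in both RT1-Db1 and RT1-Bb. CTGATTGG began 52 bases before the start of RT1-Da, 83 before that of RT1-Db1, 46 before that of RT1-Ba and 64 before that of RT1-Bb. On either strand, CTGATTGG lay in 4 of the 5 class II promoters, in 1 class I promoter (Psmb9) and in 3.5% of all 33469 RefSeq promoters. In Psmb9 it began after the start. It was chosen after these promoters had been read. ACNGATG lay in 3 of the 5 class II promoters, in 0 class I promoters and in 10.2% of all promoters. RT1-Ba held no exact match to ACNGATG, and X boxes with other letters were not searched for. Cd74 held neither CTGATTGG nor ACNGATG. The core ATTGG alone lay in 8 of the 10 and in 37.5% of all. A match is a run of letters and not a measured binding site.

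Interferon-responsive promoters are known for a pair of GAAA-like repeats that interferon regulatory factors bind. The letters AAANNGAAA, on either strand, lay in 4 of the 5 class I path promoters (not that of Psmb9), in 0 of the 5 class II promoters and in 11.8% of all promoters. The 4 matches are shown in capitals with 30 bases on each side. The element lies on the other strand in Tap1 and Psmb8 and there reads as its reverse complement.
B2m (chr3:129549151-129549219, plus strand): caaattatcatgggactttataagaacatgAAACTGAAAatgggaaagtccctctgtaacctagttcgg
Tap1 (chr20:4668626-4668694, minus strand): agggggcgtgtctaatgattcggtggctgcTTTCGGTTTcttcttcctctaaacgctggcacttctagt
Tap2 (chr20:4652298-4652366, minus strand): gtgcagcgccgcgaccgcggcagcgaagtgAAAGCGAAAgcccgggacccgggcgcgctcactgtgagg
Psmb8 (chr20:4656997-4657065, minus strand): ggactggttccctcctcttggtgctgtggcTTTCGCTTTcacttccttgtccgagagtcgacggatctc
Tap2, Psmb8, Tap1 and Psmb9 stand next to each other in the RefSeq gene table, and 8 of the 10 genes lie on chromosome 20. The starts of Tap1 and Psmb9 lie 457 bases apart and their promoter windows share 44 bases.

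No member of either path showed a difference between exercised and sedentary ventricle that passed the test. In limma with Benjamini-Hochberg adjustment over the 6555 probe sets that passed the filter on dim values, 0 of the 20 tested member probe sets had an adjusted p under 0.05, against 0.32% of all tested probe sets (21, of which 18 were higher and 3 lower). At an unadjusted p under 0.05 limma took 1 of the 20, against 16.2% of all tested probe sets, and an exact permutation test of each probe set took 2, against 17.6% of all tested. The 2 groups overlapped for all 20, whereas for 2.07% of all tested probe sets they did not. The 20 comprised all 7 of the class I path and 13 of the 16 of the class II path, and the 3 dim ones were all of RT1-Bb. Each difference below is that of exercised minus sedentary means of log2(intensity + 363), and for a dim probe set the added 363 makes it smaller than the true log ratio. Intensities are mean ± SD over 6 arrays a group, each difference has its standard error (SE), and no gene's level was compared with another's.

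**Figure D1:**
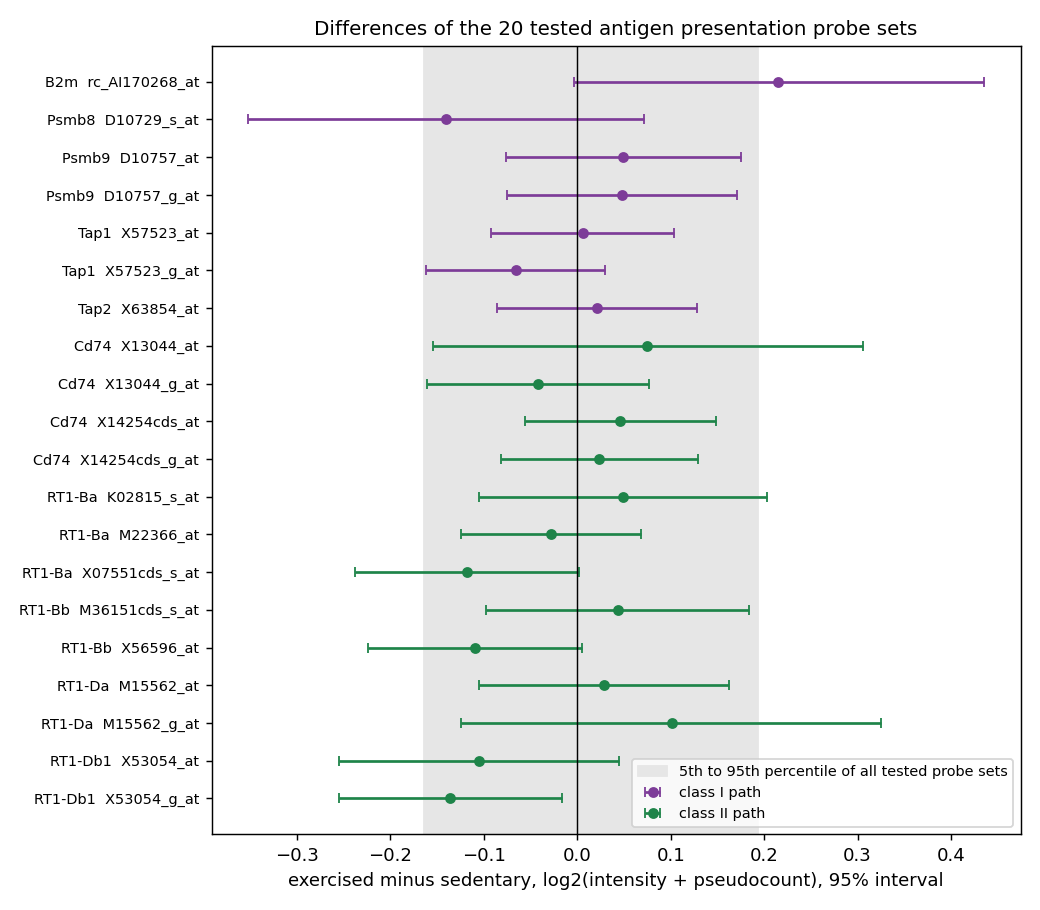
Difference of each of the 20 tested member probe sets (point) with its 95% interval from limma, exercised minus sedentary in log2(intensity + pseudocount), class I path above and class II path below. The grey band spans the 5th to 95th percentile of all tested probe sets (-0.16 to 0.19), and only B2m (0.22) lies outside it.

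The differences of the members were of the size seen across the array. The median size of a difference, sign left aside, was 0.049 for the 20 members and 0.061 for all tested probe sets, and the median SE was 0.057 in both. The class I path had 5 probe sets above 0 and 2 below, with a median of 0.021. The class II path had 7 above and 6 below, with a median of 0.023. All tested probe sets had 51.4% above 0 and a median of 0.003. In a bulk sample, fewer cells of a type and less RNA per cell cannot be told apart.

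The 12 arrays were on a common scale, with median intensities between 840 and 875. Sedentary 17 stood apart from the other 5 sedentary arrays on 17.7% of tested probe sets by Dixon's criterion, whereas each of the other 11 arrays did so on 0.275% to 1.11%. Every member result was therefore also taken without sedentary 17. Then 0 of 20 passed, the class I median was 0.0077 and the class II median 0.023. Where leaving out sedentary 17 turned a member's sign or moved its difference by over 1.5 times, that value is given beside it. All 8 cardiomyocyte markers listed had probe sets, and their summed intensity was 298224 to 320700 in exercised and 288004 to 325084 in sedentary samples. The lowest sum was that of sedentary 24, which read 38668 for Myl2 on X07314cds_at, with the other sedentary arrays at 52093 to 55482. Of the 13 tested probe sets of this list, 11 were higher (84.6%, against 51.4% of all tested), 2 lower and 0 passed. Their median was 0.028.

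B2m encodes the invariant light chain of every class I molecule and had the largest difference of the 20. The exercised arrays ranged between 6759 and 10394 with a median of 7618, and the sedentary arrays between 5982 and 7970 with a median of 6826. Exercised 5 and exercised 8 (9169) lay above every sedentary array, and the other 4 lay within the sedentary range. Mean intensity was 8168 ± 1350 in exercised and 6955 ± 867 in sedentary samples, a difference of 0.22 (SE 0.10, 95% interval -0.004 to 0.44, limma adjusted p = 0.318). This difference was 0.15 without exercised 5, 0.26 without exercised 4 and 0.17 with quantile normalization. Of the 6 exercised arrays, 5 lay above the sedentary mean.

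Psmb8, the immunoproteasome subunit β5i, had the lowest difference of the class I path, and 1 array set most of it. The exercised arrays spanned 1420 to 1895 with a median of 1752. The sedentary arrays spanned 1693 to 2868 with a median of 1801, and the top value was that of sedentary 17. The difference was -0.14 (SE 0.099, limma adjusted p = 0.491), and without sedentary 17 it was -0.042 (adjusted p = 0.746).

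Psmb9, the immunoproteasome subunit β1i, was read by a pair of probe sets with close values. D10757_at gave 2044 ± 138 in exercised and 1966 ± 179 in sedentary samples, a difference of 0.049 (SE 0.059). D10757_g_at gave 1250 ± 123 in exercised and 1196 ± 100 in sedentary samples, a difference of 0.048 (SE 0.057). Both had a limma adjusted p of 0.685, and without sedentary 17 the differences were 0.012 and 0.017.

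Tap1 and Tap2 form the peptide transporter as a pair of subunits. On X57523_at, Tap1 had 649 to 769 in exercised samples with a median of 682, and 582 to 762 in sedentary samples with a median of 703. Its difference there was 0.006 (SE 0.045, 95% interval -0.092 to 0.10). On X57523_g_at, Tap1 averaged 1828 ± 90.7 in exercised and 1930 ± 108 in sedentary samples, a difference of -0.066 (SE 0.045, limma adjusted p = 0.479). Tap2 averaged 810 ± 82.1 in exercised and 792 ± 61.9 in sedentary samples, a difference of 0.021 (SE 0.050, limma adjusted p = 0.849). Without sedentary 17, Tap1 gave -0.026 on X57523_at and Tap2 gave 0.0077. The intervals of all 3 held 0, and the signs of Tap1 on X57523_at and of Tap2 turned under several settings given in the closing section.

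**Figure D2:**
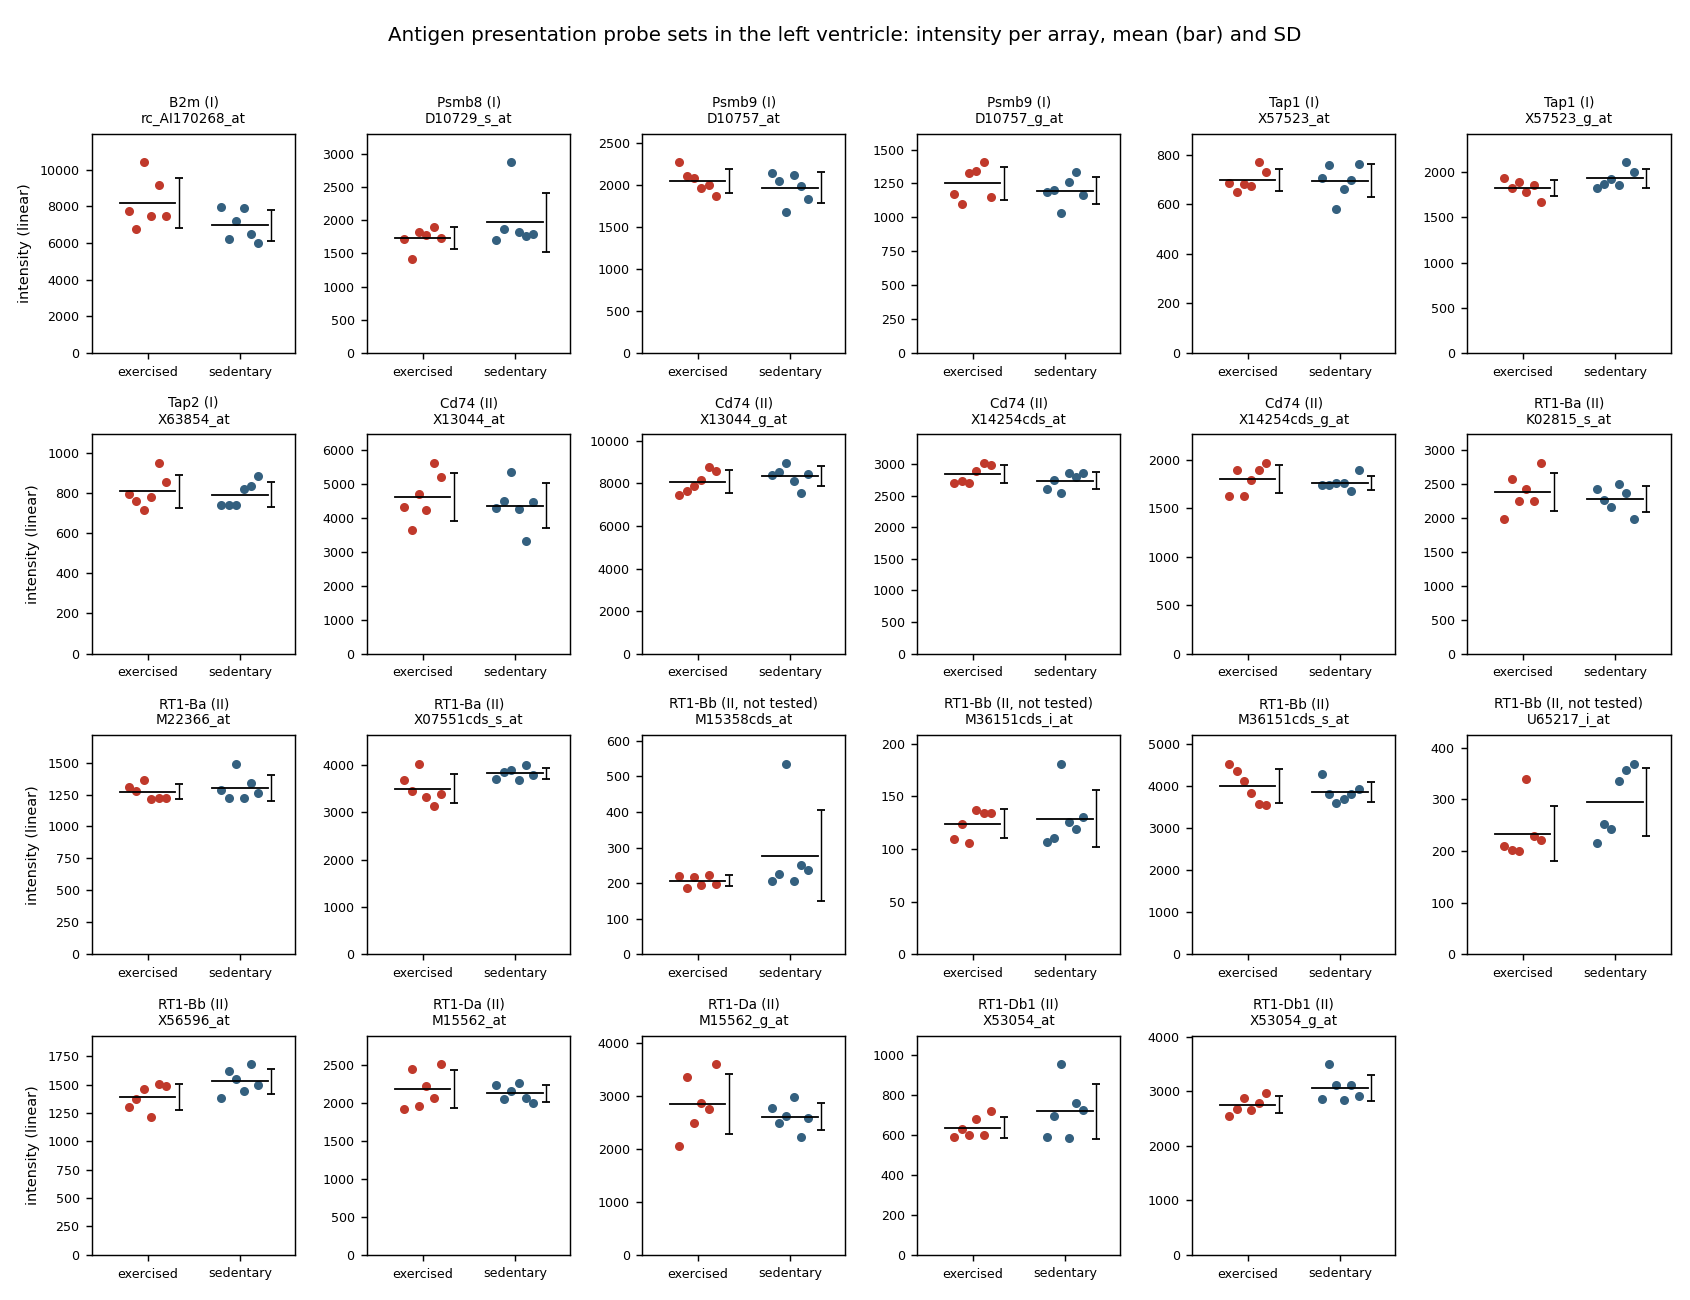
Intensity on a linear axis from 0 in each exercised (red, left) and sedentary (blue, right) array for all 23 member probe sets, with the group mean (bar) and SD (whisker), n = 6 a group. The path stands in brackets, and the 3 probe sets under the filter are marked as not tested. The groups overlap in every panel, and sedentary 17 is the high blue point for Psmb8 (2868).

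Cd74, the invariant chain that holds the class II groove closed on the way to the endosome, was read by 4 probe sets. X13044_at averaged 4616 ± 714 in exercised and 4361 ± 655 in sedentary samples, a difference of 0.075 (SE 0.11), and it had the widest interval of the class II path, -0.16 to 0.31. X13044_g_at averaged 8087 ± 520 in exercised and 8333 ± 471 in sedentary samples, a difference of -0.042 (SE 0.055). X14254cds_at and X14254cds_g_at gave 0.046 (SE 0.048) and 0.023 (SE 0.049). The limma adjusted p of the 4 ran between 0.637 and 0.831, and they did not share a sign. Without sedentary 17, X13044_at gave 0.13, X13044_g_at -0.021 and X14254cds_at 0.027. Without sedentary 23, X13044_at gave 0.0045, so that its difference rested largely on that array.

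RT1-Da and RT1-Db1 encode the α and β chains of the DR-like class II molecule. RT1-Da on M15562_g_at ranged between 2063 and 3601 in exercised samples with a median of 2813, and between 2221 and 2979 in sedentary samples with a median of 2605. The highest and the lowest of the 12 arrays were both exercised ones, and the difference was 0.10 (SE 0.10, limma adjusted p = 0.640). It was 0.037 without exercised 9 and 0.18 without exercised 1. On M15562_at it was 0.029 (SE 0.062, limma adjusted p = 0.837). RT1-Db1 was the member that limma took at an unadjusted p under 0.05. On X53054_g_at its exercised arrays ranged between 2557 and 2977 with a median of 2726, and its sedentary arrays between 2849 and 3498 with a median of 3018. All 6 exercised arrays lay below the sedentary mean, and the ranges overlapped. The difference was -0.14 (SE 0.056, 95% interval -0.26 to -0.016), with a limma unadjusted p of 0.0288 and an adjusted p of 0.246. The second RT1-Db1 probe set, X53054_at, gave -0.10 (SE 0.070, limma adjusted p = 0.469), and -0.046 without sedentary 17.

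RT1-Ba and RT1-Bb encode the α and β chains of the DQ-like molecule, and for each gene the probe sets disagreed in sign. RT1-Ba on X07551cds_s_at spanned 3135 to 4030 in exercised samples with a median of 3424, and 3689 to 4005 in sedentary samples with a median of 3817. Of the 6 exercised arrays, 1 lay above the sedentary mean, and the difference was -0.12 (SE 0.056, limma adjusted p = 0.317). Its other probe sets gave 0.049 (K02815_s_at, SE 0.072) and -0.028 (M22366_at, SE 0.045), and 0.0032 on M22366_at without sedentary 17. RT1-Bb on X56596_at averaged 1391 ± 117 in exercised and 1528 ± 110 in sedentary samples, a difference of -0.11 (SE 0.054, limma adjusted p = 0.331), with 0 of 6 exercised arrays above the sedentary mean. RT1-Bb on M36151cds_s_at averaged 3995 ± 411 in exercised and 3856 ± 239 in sedentary samples, a difference of 0.043 (SE 0.066, limma adjusted p = 0.750), and 0.026 without sedentary 17.

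The 3 RT1-Bb probe sets under the filter were dim in both groups. M15358cds_at averaged 207 ± 15.9 in exercised and 277 ± 128 in sedentary samples, M36151cds_i_at 124 ± 13.7 in exercised and 129 ± 27.1 in sedentary samples, and U65217_i_at 233 ± 53.0 in exercised and 295 ± 66.0 in sedentary samples. MHC genes vary between rat strains, and the strain is not given in the labels. How well each probe set matches the alleles of these rats was not tested. Probe sets named _at and _g_at of 1 accession are aimed at the same transcript, and those named _s_, _i_ or _f_ can bind related transcripts, so the 23 are not independent readings of the 10 genes.

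Set against each other array by array, the 2 paths differed between the groups by less than the arrays of 1 group differed among themselves. Each tested probe set was centred on its mean over the 12 arrays and averaged within a path. The class I path averaged 0.009 ± 0.071 in exercised and -0.009 ± 0.020 in sedentary samples, a difference of 0.019. The class II path averaged -0.007 ± 0.057 in exercised and 0.007 ± 0.029 in sedentary samples, a difference of -0.013. In both paths the exercised arrays spread wider than the sedentary ones. Exercised 8 was highest (0.11) and exercised 4 lowest (-0.090) in the class I path, whereas exercised 9 was highest (0.087) and exercised 1 lowest (-0.089) in the class II path. No test was run on these means or on their spread.

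**Figure D3:**
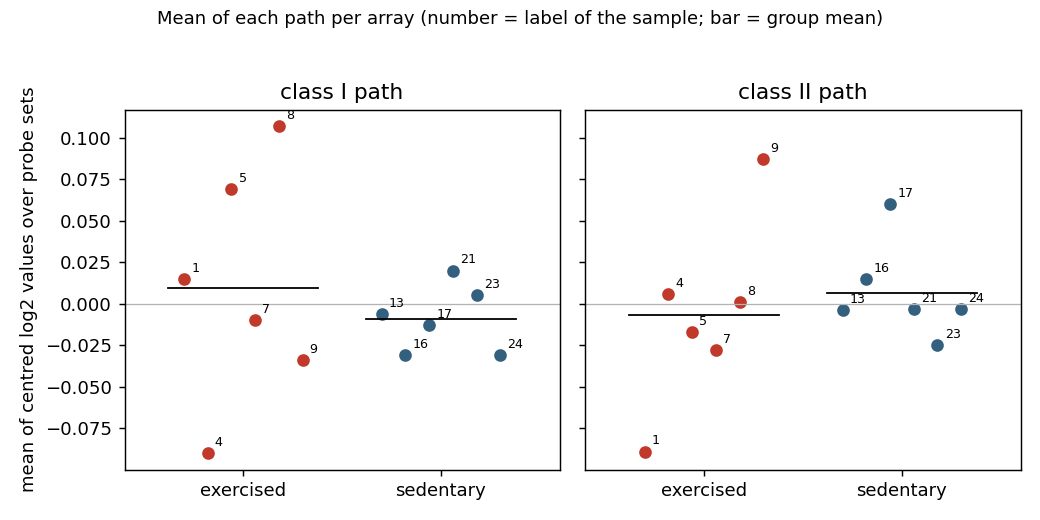
Mean of the centred log2 values over the 7 class I path (left) and 13 class II path (right) probe sets for each array, with its label number and the group mean (bar). In both panels the highest and the lowest array are exercised ones, and the group means lie within 0.019 of each other.

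Class I heavy chains pair with B2m to make the complete molecule. RT1-A, a classical heavy chain, on M31018_f_at averaged 9411 ± 1609 in exercised and 8195 ± 897 in sedentary samples, a difference of 0.18 (SE 0.10, limma adjusted p = 0.379), and 0.11 without exercised 5. RT1-CE12 on M24026_f_at averaged 7261 ± 1151 in exercised and 6113 ± 949 in sedentary samples, a difference of 0.23 (SE 0.11, limma adjusted p = 0.299). RT1-M5 and RT1-N3 gave -0.017 and -0.026. These 4 were added to the lists after the annotation had been read, and the sequences of heavy chains are so alike that their probe sets can share transcripts. RT1-CE16, a heavy chain of the wider list below, averaged 15560 ± 2034 in exercised and 14900 ± 1596 in sedentary samples. Its difference was 0.058 (SE 0.087, limma adjusted p = 0.749).

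Of a wider class I list (further heavy chains, chaperones of loading, the proteasome activator and class I-like genes, 12 of 23 genes on the array), 12 tested probe sets were higher, 10 lower and 0 passed, with a median of 0.033. Without sedentary 17 the median was 0.0046, and with quantile normalization it was -0.0013. The 3 of smallest unadjusted p were RT1-S3, a heavy chain, Fcgrt, a class I-like receptor for IgG that also pairs with B2m, and Psme1, a proteasome activator subunit. RT1-S3 averaged 519 ± 124 in exercised and 393 ± 63.5 in sedentary samples, a difference of 0.22 (SE 0.083, limma adjusted p = 0.222), and its other tested probe set gave 0.049. Its probe set AF029240_at, under the filter and not tested, had 289 to 494 in exercised and 205 to 286 in sedentary samples. Fcgrt on rc_AI180013_at gave 0.099 (limma adjusted p = 0.254), and its other probe sets 0.054 and -0.004. Psme1 on rc_AA799484_at gave -0.083 (limma adjusted p = 0.253), and its other probe sets 0.097 and 0.022.

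Of the list of class II loading factors, lysosomal proteases and class II transcription factors (14 of 20 genes on the array), 15 tested probe sets were higher, 5 lower and 0 passed, with a median of 0.073. Cathepsin S, Ctss, trims the invariant chain Cd74 in antigen-presenting cells and came nearest to the threshold. Its exercised arrays ranged between 1465 and 2833 with a median of 1803, and its sedentary arrays between 1087 and 1603 with a median of 1215. All 6 exercised arrays lay above the sedentary mean and the ranges overlapped, a difference of 0.46 (SE 0.12, limma adjusted p = 0.0916). The cathepsins Ctsl and Ctsb gave 0.16 (limma adjusted p = 0.151) and 0.18 (limma adjusted p = 0.216), and the other Ctsl probe set gave 0.082. RT1-DMa and RT1-DMb, which form the exchanger that loads class II with peptide, had probe sets of both signs (-0.093 and 0.088 for RT1-DMa, -0.081, 0.020 and 0.068 for RT1-DMb). The NF-Y subunits, whose complex binds the Y box shown above, were picked out after their values were seen. Nfya gave 0.038, Nfyb 0.10 and 0.052, and Nfyc 0.090 and 0.097, with a smallest limma adjusted p of 0.253. An Nfyb probe set under the filter, M60617_g_at, went the other way. Its mean was 244.4 in exercised and 286.5 in sedentary samples, with 427 in sedentary 17. Creb1, a further transcription factor of the list, gave -0.020.

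Interferon induces the immunoproteasome subunits Psmb8 and Psmb9 and the TAP genes. Of the interferon response list (18 of 29 genes on the array), 10 tested probe sets were higher, 6 lower and 0 passed, with a median of 0.013. Stat2, a transducer of type I interferon, had 677 to 744 in exercised samples and 600 to 671 in sedentary samples, which did not overlap. Its mean was 708 in exercised and 624 in sedentary samples, a difference of 0.12 (SE 0.031, limma adjusted p = 0.0922). Irf3, a type I interferon regulator, averaged 1635 ± 121 in exercised and 2025 ± 302 in sedentary samples, a difference of -0.25 (SE 0.075, limma adjusted p = 0.131), and its other probe set gave -0.078. Ifitm3, an antiviral membrane protein, gave 0.24 (SE 0.078, limma adjusted p = 0.152). For Irf8 too the groups did not overlap, as for 2.07% of all tested probe sets. Irf8 had 823 to 983 in exercised and 711 to 815 in sedentary samples, a difference of 0.115 (limma adjusted p = 0.162). The largest difference of the list was that of Irf7 on rc_AA799861_at, -0.3 (limma adjusted p = 0.158), and its other probe set gave -0.11.

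Of the list of constitutive proteasome subunits (11 of 14 genes on the array), which share the particle with Psmb8 and Psmb9, 18 tested probe sets were higher, 4 lower and 0 passed, with a median of 0.096, and 0.056 without sedentary 17. Psma4 and Psmb4 gave 0.16 (limma adjusted p = 0.229) and 0.14 (limma adjusted p = 0.276), and the other Psmb4 probe sets gave 0.14 and -0.031. Psma5 on D10756_g_at gave 0.22 (limma adjusted p = 0.252), and 0.13 without sedentary 17, and its other tested probe set gave 0.15.

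**Figure D4:**
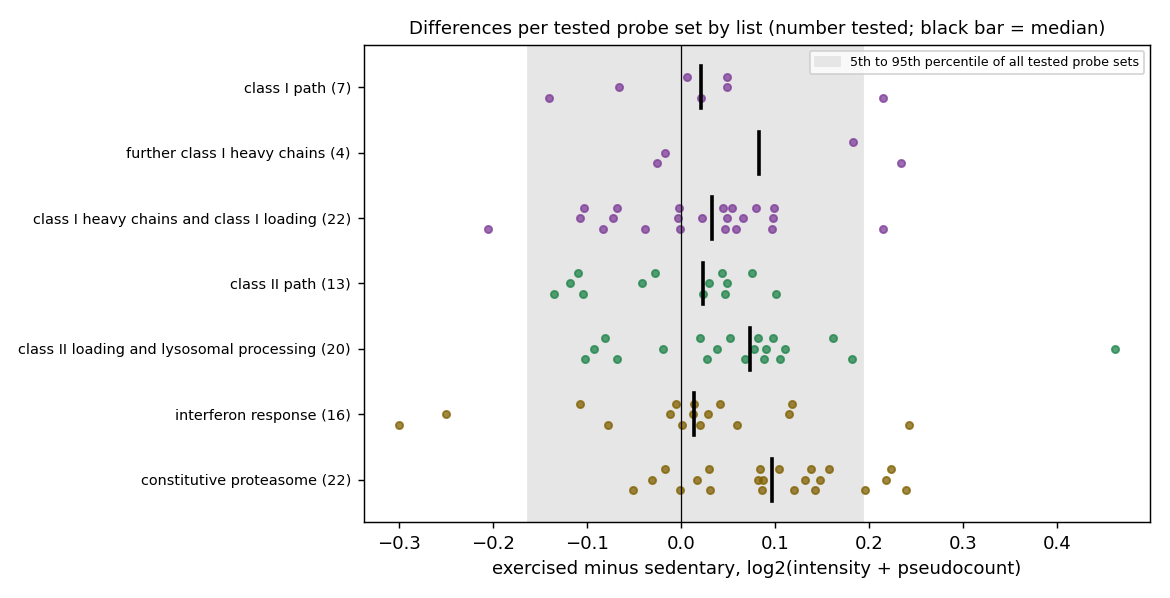
Difference per tested probe set, exercised minus sedentary in log2(intensity + pseudocount), by list, with the number tested in brackets and the median as a black bar. The grey band spans the 5th to 95th percentile of all tested probe sets (-0.16 to 0.19), and the isolated point at 0.46 is Ctss.

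The cells that carry class II were followed by their own markers. Of the macrophage list, 8 of 11 genes were on the array and 1 of its 9 tested probe sets passed, with 4 higher, 5 lower and a median of -0.011. The 1 that passed was Lyz2, the myeloid lysozyme, at 5421 ± 2104 in exercised and 2401 ± 297 in sedentary samples, a difference of 0.997 (SE 0.18, limma adjusted p = 0.0404). Without sedentary 17 the difference of Lyz2 was 0.99, with an adjusted p of 0.0547 in limma. Exercised 4 and 5 read highest for Lyz2, at 9078 and 5999. Without them its difference was 0.75, with a limma adjusted p of 0.113. The summed level of the list was 11953 to 18431 in exercised and 10874 to 12132 in sedentary samples. Without Lyz2 the sum of its other 7 genes was 8593 to 9481 in exercised and 8874 to 9621 in sedentary samples. Within these 7 genes the differences went both ways. C1qb gave 0.37 and 0.31 on its probe sets (limma adjusted p = 0.091 and 0.092). Aif1 on U33471_at gave -0.195 (limma adjusted p = 0.164) and Csf1r gave -0.17 (limma adjusted p = 0.177). The other Aif1 probe sets, under the filter, went the other way. U17919_s_at averaged 356.2 in exercised and 295.5 in sedentary samples, and U10894_s_at 370.5 and 353.3. Of the further dim probe sets of the list, those of Itgam (396.3 and 330.4) and Fcgr2b (204.7 and 187.5) were higher in exercised samples. That of Ptprc (59.41 and 76.38) was lower. Of the B cell list 1 of 6 genes was on the array, Cd79b, with 1018 to 1321 in exercised and 1079 to 1349 in sedentary samples. Of the T and NK cell list 12 of 13 genes were on the array, with a summed level of 8516 to 8931 in exercised and 8814 to 9368 in sedentary samples, 3 probe sets higher, 7 lower and 0 passed. Both tested erythroid probe sets (2 of 4 genes on the array) lay below 0 without passing, with a median of -0.43 and a summed level of 10974 to 35876 in exercised and 34491 to 39935 in sedentary samples. For the haemoglobin gene Hbb, exercised 4 and 5 set most of the difference, with 15784 and 8786 against 31533 to 37794 in sedentary samples. The difference of Hbb was -0.58, and -0.12 without exercised 4 and 5. That of Alas2, the other erythroid gene, was -0.28 (limma adjusted p = 0.182). It was -0.19 without exercised 4 and 5 and -0.35 without sedentary 17. Of the endothelial list 5 of 8 genes were on the array, with a summed level of 4573 to 4981 in exercised and 4669 to 6094 in sedentary samples, and 0 of its 4 tested probe sets passed. The top sum was that of sedentary 17, which read 2689 for Flt1, with the other sedentary arrays at 1441 to 1701. None of these lists had a gene at 0. The 4 dendritic cell markers listed had no probe set used here. What part these cells have in the member values was not tested.

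Correlations within groups were taken between members and between B2m and its heavy chains, and none passed the threshold. Pearson's r was taken after removing the group means, for 45 pairs of members (the brightest tested probe set of each gene) and 3 pairs of B2m with a heavy chain, a choice made after the values were seen. B2m and RT1-A had r = 0.83 over 12 arrays (permutation p = 0.00268, adjusted over the 48 pairs 0.0643) and Spearman's rho = 0.74 (permutation p = 0.0106, adjusted 0.238). Without exercised 5 and sedentary 13, the 2 arrays farthest from the median of B2m, r was 0.63. Within the exercised arrays it was 0.95 and within the sedentary arrays 0.60. B2m and RT1-CE16 had r = 0.79 (permutation p = 0.00421, adjusted 0.0674) and rho = 0.68 (permutation p = 0.0252, adjusted 0.238), with r = 0.69 without those 2 arrays. B2m and RT1-CE12 had r = 0.69 (permutation p = 0.0203, adjusted 0.195) and rho = 0.56 (permutation p = 0.0767, adjusted 0.335), and r was 0.36 without those 2 arrays. Tap1 and RT1-Da had r = -0.77 (permutation p = 0.00196, adjusted 0.0643) and rho = -0.77 (permutation p = 0.00395, adjusted 0.19), with r = -0.61 without exercised 9 and sedentary 23. Other member pairs also had a permutation p under 0.05 for r before adjustment. Psmb9 and RT1-Bb had r = 0.65 (permutation p = 0.0155, adjusted 0.186). Cd74 and RT1-Bb had r = -0.68 (permutation p = 0.0295, adjusted 0.21), and -0.78 without exercised 1 and sedentary 23. Psmb9 and Cd74 had r = -0.64 (permutation p = 0.0307, adjusted 0.21). Psmb8 and Psmb9 had r = -0.65 (permutation p = 0.0472, adjusted 0.283), and -0.15 without exercised 4 and sedentary 17.

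Among 3866 genes other than the members, those whose arrays ran most like the class I path were Inpp4a (0.93), Mfsd10 (0.89) and Zfp386 (0.86). The ranking used the same r, without a test. For the class II path they were Sdc1 (0.86), Clta (0.82) and Ciao2b (0.82). These are the top of a long ranking over 12 arrays and are given as a description.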

How the data were processed

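Total RNA of 12 left ventricle samples was measured on single-channel arrays. The authors deposited 1 linear intensity for each probe set and array. Which software, background correction and scaling made it is not given in the sources used here. The number of arrays limits the precision, and a change shared by all transcripts would not show. Samples were grouped by title. Probe sets were named from the platform annotation, and all 10 genes matched the RefSeq table by Entrez ID. A probe set that names B2m among several genes was not used.

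From the intensities, log2(intensity + 363) was computed, the pseudocount being the 20th percentile of all values. Probe sets were kept when their mean over all arrays was above 434, the 25th percentile of the means, which kept 6555 of 8740. Exercised and sedentary samples were compared with limma 3.58.1 in R 4.3.3 (lmFit, eBayes with trend, two-sided), with Benjamini-Hochberg adjustment over all kept probe sets, a threshold of 0.05 and 95% intervals. The code was tested on simulated data. The exact permutation test took all 924 assignments of arrays, with a smallest p of 0.00216, and correlations used 100000 permutations within groups.

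Named genes were every member, and in each other list those past the threshold or the 3 probe sets of smallest unadjusted p, with the 3 genes most like each path. The NF-Y subunits and some further genes were named outside this rule. The members, lists and tests were chosen with earlier results of these data known. Promoters were searched on both strands of the RefSeq GRCr8 table. Alternatives were other pseudocounts, filters, scalings and test settings and leaving out arrays.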

Additional observations from a re-analysis of the deposited data

Results flagged for a closer look

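Within the 78 groups of 6 arrays looked at for members and named genes, 7 held an array whose gap to its neighbour exceeded Dixon's 95% critical value of 0.625. Chance flags about 1 in 20 groups. Of the 7, 5 were on sedentary 17, the array that stood apart on 17.7% of all tested probe sets. For the immunoproteasome subunit Psmb8 it read 2868, with the other sedentary arrays at 1693 to 1871. For RT1-Bb it read 536 on M15358cds_at, with the others at 205 to 250, and 181 on M36151cds_i_at, with the others at 107 to 130, both under the filter on dim values. For the constitutive subunits Psma4 and Psma5 it was the lowest, at 1654 with the others at 1808 to 1888, and at 949 with the others at 1492 to 1637. Exercised 7 read 339 on the dim RT1-Bb probe set U65217_i_at, with the other exercised arrays at 199 to 228. Sedentary 13 read 4222 for Ctsb, with the other sedentary arrays at 3363 to 3685. What sets sedentary 17 apart was not tested.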

How the results depend on the processing

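None of the 20 tested member probe sets passed the threshold under any of the 25 alternatives. The smallest adjusted p of a member in each setting lay between 0.159 and 0.498. Of 497 member values under alternatives, 13 had the opposite sign, all in 4 members, and the other 16 kept theirs. With array weights, Tap1 on X57523_at gave -0.042, Tap2 -0.010 and RT1-Ba on M22366_at 0.011. Without sedentary 16 and 17, Tap1 on X57523_at and Tap2 both gave -0.012. With 1 array left out in turn, Tap1 on X57523_at ranged between -0.026 and 0.024, Tap2 between -0.012 and 0.044, RT1-Ba on M22366_at between -0.044 and 0.0032 and RT1-Da on M15562_at between -0.0071 and 0.059. Each of these values is smaller than the SE of that probe set as reported, and the cause was not tested. Leaving out 1 array moved 15 of the 20 member differences by over 1.5 times. The stricter filter left 3 member probe sets without a value. RT1-N3 changed sign once among the heavy chains, at 0.00010 without exercised 9. Over all alternatives the class I path median lay between -0.012 and 0.048 and the class II path median between -0.020 and 0.034. The count over all genes, 21 as reported, moved more. It was 32 without a filter, 50 with a filter at the median of the means, 42 in eBayes without trend and 160 with array weights. It was 5 without sedentary 16 and 17, 4 without exercised 4 and 5, and 3 to 37 with 1 array left out (35 without exercised 1, 4 without exercised 5, 8 without exercised 7, 12 without exercised 9, 37 without sedentary 13, 6 without sedentary 16, 13 without sedentary 21, 3 without sedentary 23 and 4 without sedentary 24). The exact permutation test gave 0 of 6555 after adjustment, with a smallest adjusted p of 0.104, and 1154 at an unadjusted p under 0.05. Ctss (0.51) and Stat2 (0.12) passed with array weights, each at an adjusted p of 0.040, and under no other alternative run. Of 312 list medians under alternatives, 3 moved by more than the SD between arrays. These alternatives were applied to the genes and lists beside the members after the data were seen. No paired analysis was possible because the groups share no replicate numbers.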
